A study of Tetranychus urticae with 4 samples.

Results

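CYP392E8 (tetur27g00350), CYP392E7 (tetur27g00340), CYP392A7 (tetur16g03500) and CYP392B3 (tetur20g00290) are cytochrome P450 genes of the two-spotted spider mite Tetranychus urticae, and their transcripts were measured here in diapausing (DIA) and non-diapausing (NON-DIA) females. They are 4 of the 18217 genes on the array and 4 of the 15 CYP392 genes in the study's list of CYPs that differed in diapause. They were selected on their measured log2 ratios, as a large rise, a pair of smaller rises and a fall, so the values below describe them and are not tested. Gene spots were assigned to a member by the gene IDs in the array's annotation, and a probe that lists several genes is called shared, while one that lists a single gene is called its own probe.

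DIA mites were adult females in diapause, and NON-DIA mites were adult females that had developed in the same conditions without entering it. Both came from the LS-VL strain. From larvae on they were reared at 17 °C with 8 h light and 16 h dark at 80% relative humidity. No treatment that sets them apart is given, and their genotypes are not given, so an allele that differs between them cannot be told apart from diapause. Each of the 4 arrays held 1 replicate, with DIA RNA labelled with Cy5 and NON-DIA RNA labelled with Cy3. Every RNA sample was a pool of whole females, so a change in a tissue's share of the body and a change of RNA per cell cannot be told apart. The dyes were not swapped, so a probe's response to the dye cannot be told apart from its response to diapause. The arrays ask which transcripts differ between females that entered diapause and those that did not, within 1 strain and rearing regime. The study names 6 vitellogenin genes, which encode yolk precursors of egg-laying females, among its most downregulated genes. All 6 were downregulated in DIA mites here, where 9.1% of all genes were. They were named from these same arrays, so the count is no independent check of the females' state.

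Cytochrome P450s are haem enzymes that insert an oxygen atom into small molecules, using electrons passed on by partner proteins. In insects and mites they take part in hormone synthesis and in the breakdown of plant compounds and acaricides. CYP392 is a family of the CYP2 clan that has expanded in spider mites, with subfamilies such as A, B, D and E, and near-identical copies in it can share array probes. Some members, among them CYP392E10, are known to metabolise acaricides, and no role in diapause is ascribed here to any of the 4 genes. Diapausing spider mite females stop feeding and do not lay eggs.

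CYP392E8 was higher in DIA than in NON-DIA mites on every array, and CYP392E7 and CYP392A7 were higher by less than 2-fold on average. The study lists CYP392E7 and CYP392A7 as upregulated by more than 2-fold, which their mean values here did not reach. The study filtered probes by other flags and linked them to a later gene annotation before summarizing by gene. Here the array's own gene IDs were used and shared probes were included. Which step accounts for the gap was not tested. CYP392B3 was lower in DIA mites on every array. For 3 of the 4 genes the side of the 2-fold line depended on the processing. With spike-in scaling CYP392E7 was at 1.28 and CYP392A7 at 1.002, and on the brightest probe they were at 1.27 and 1.69. CYP392B3 was at -0.88 after normexp and median centring and at -0.98 on its brightest probe. Over all its probes, CYP392E8 had log2 ratios of DIA over NON-DIA of 2.06, 2.06, 2.51 and 1.42 on replicates 1 to 4, a mean of 2.01 ± 0.45 (SD, n = 4) or 4.03-fold. CYP392E7 had log2 ratios of 0.37, 0.87, 1.54 and 0.92, with a mean of 0.92 ± 0.48 (SD, n = 4) or 1.90-fold. The E-subfamily genes were both highest on replicate 3, but CYP392E8 was lowest on replicate 4 and CYP392E7 on replicate 1. CYP392A7 had log2 ratios of 0.54, 0.66, 0.70 and 0.66, with a mean of 0.64 ± 0.066 (SD, n = 4) or 1.56-fold. CYP392B3 had log2 ratios of -1.40, -1.16, -1.51 and -1.39, with a mean of -1.37 ± 0.15 (SD, n = 4), which is 2.58-fold lower in DIA mites. With the software's normalization the array-to-array SD was larger for the E-subfamily genes than for CYP392A7 and CYP392B3, beside a median SD of 0.17 over all 14986 genes with a value, but with spike-in scaling CYP392E8 had the smallest SD of the 4, as given below.

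**Figure D1:**
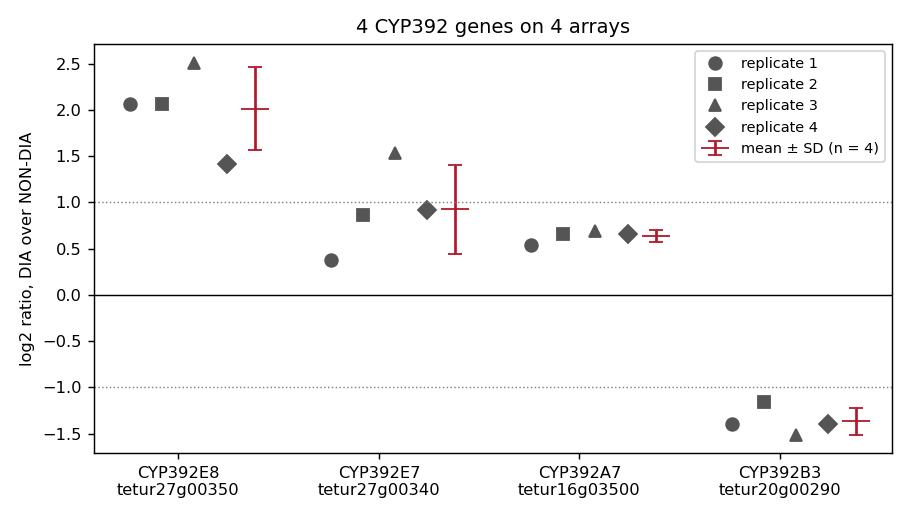
Log2 ratio of DIA over NON-DIA (y axis) for the 4 CYP392 genes (x axis) on each of 4 arrays, with symbols for replicates and red bars for the mean ± SD (n = 4). The dotted lines mark a 2-fold difference. CYP392E8 lies between 1.42 and 2.51, while CYP392B3 lies between -1.51 and -1.16.

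A gene was called differentially expressed in DIA mites at an adjusted p under 0.05 (limma, Benjamini-Hochberg over all 14986 genes) together with a change of at least 2-fold. Of all genes 9.04% were upregulated, and CYP392E8 is the 1 of the 4 among them, while 9.1% were downregulated, and CYP392B3 is the 1 of the 4 among those. These places were fixed when the genes were picked for the same log2 ratios, so they are no test and nothing is read from them. From the highest log2 fold change down, CYP392E8 stood at rank 234, CYP392E7 at rank 1584 and CYP392A7 at rank 2783 of the 14986 genes. From the lowest up, CYP392B3 stood at rank 908.

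Whether a CYP392 value can be credited to a single gene depends on the probes behind it. The 4 genes had 28 probes between them, all of them well above background in both channels on all 4 arrays. No spot of these probes was marked as an outlier. Where a probe was spotted in duplicate, its spots differed by at most 0.29 in log2 ratio on the same array. The means of a gene's probes spanned 0.78 log2 units for CYP392E8, 1.21 for CYP392E7, 2.13 for CYP392A7 and 0.97 for CYP392B3. Among the 574 genes with at least 6 kept probes the median span was 0.47, and 95.1% of them had a smaller span than CYP392A7. Signals are compared below only between DIA and NON-DIA mites on the same probe, since probes differ in how strongly they bind.

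**Figure D2:**
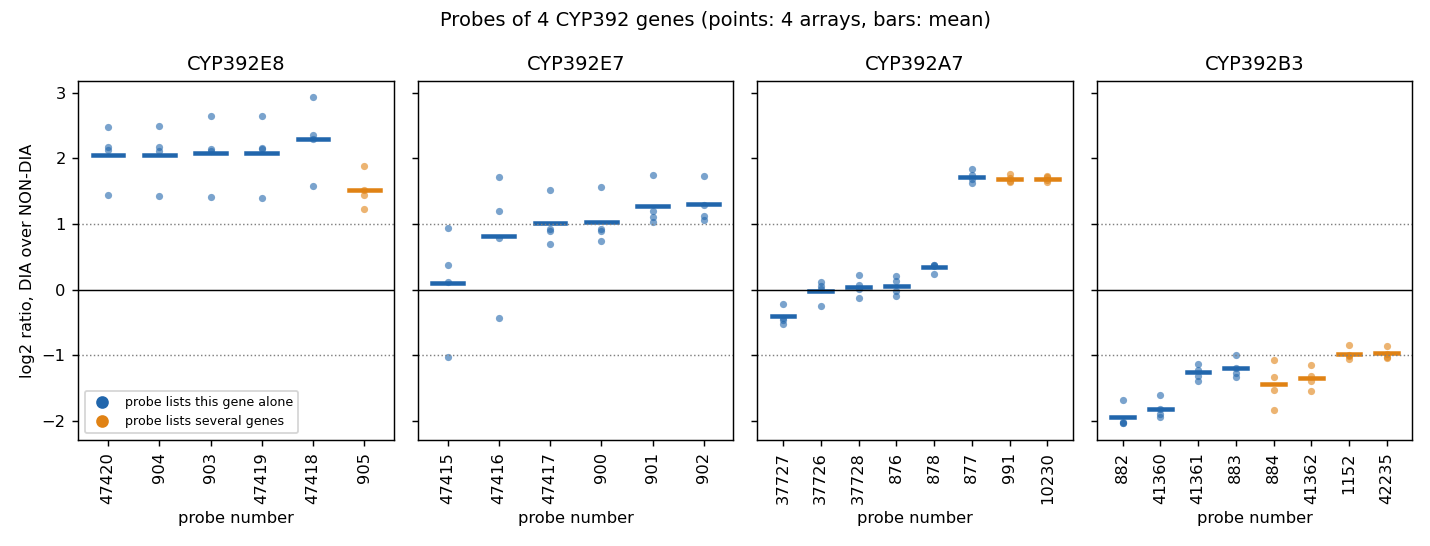
Log2 ratio of DIA over NON-DIA (y axis) for every probe (x axis, probe number) of the 4 genes, with points for 4 arrays and bars for their mean. Blue probes list the gene alone and orange probes list several genes. The probes of CYP392A7 form separate levels, with 3 between 1.69 and 1.72 and 5 between -0.41 and 0.34.

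For CYP392E8, 5 of 6 probes were its own and 1 also lists CYP392E6 (tetur27g00330), its near neighbour on scaffold 27. The own probes had mean log2 ratios between 2.05 and 2.29. On CUST_904, an own probe, DIA mites had processed signals of 30104, 29918, 38338 and 23438, against 6651, 6919, 6833 and 8700.0 in NON-DIA mites. The groups did not overlap on this probe. On replicate 4, where the ratio was lowest, the DIA signal was the lowest of the 4 and the NON-DIA signal the highest. The shared probe, CUST_905, had a mean log2 ratio of 1.52 ± 0.27 (SD, n = 4), and the own probes together had 2.11 ± 0.49. The shared probe lay below the mean of the own probes on every array, with log2 ratios of 1.44, 1.51, 1.88 and 1.23 against 2.19, 2.17, 2.64 and 1.45.

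CYP392E6, the other gene on that shared probe, had 6 own probes with mean log2 ratios between 0.64 and 1.31. Their gene value was 0.98 ± 0.22 (SD, n = 4), under the 1.05 ± 0.21 obtained when the shared probe was included. The shared probe therefore lay between the own probes of the genes it lists. CYP392E6 was upregulated over all its probes (adjusted p = 0.000717, limma), but its own probes alone gave less than a 2-fold change. All its probes also gave less than 2-fold without replicate 3, at 0.97, and with normexp and loess, at 0.89.

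All 6 probes of CYP392E7 were its own, and 4 of them had mean log2 ratios between 1.01 and 1.31. On CUST_900, one of these 4, DIA mites had processed signals of 15789, 17208, 21917 and 13399, against 9434, 9294, 7452 and 7032 in NON-DIA mites. DIA and NON-DIA signals did not overlap there. The remaining probes, CUST_47415 and CUST_47416, had means of 0.10 ± 0.83 and 0.82 ± 0.91 (SD, n = 4 each). On CUST_47415, DIA mites had signals of 71.2, 138, 136 and 106, against 145, 128, 70.7 and 82.3 in NON-DIA mites. The log2 ratio of this probe was -1.03 on replicate 1, 0.11 on replicate 2, 0.95 on replicate 3 and 0.37 on replicate 4. CUST_47416 was likewise lower in DIA than in NON-DIA mites on replicate 1 alone, at -0.43, and reached 1.72 on replicate 3. The 4 probes without them averaged 0.92, 1.08, 1.64 and 0.98 on replicates 1 to 4, a subset picked after the values were seen, so that most of the gap of replicate 1 to replicates 2 and 4 came from these probes. The median over the 6 probes gave CYP392E7 a log2 fold change of 1.06, and leaving out replicate 1 gave 1.11, both above 2-fold, while normexp background correction with loess gave 0.79.

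CYP392A7 had 8 probes, of which 6 were its own and 2 also list CYP392A9v2 (tetur02g14330), an A-subfamily gene on scaffold 2. Its modest mean ratio stood for no single probe. The shared probes CUST_10230 and CUST_991 both had a mean log2 ratio of 1.69, with SDs of 0.039 and 0.053 (n = 4). On CUST_10230, DIA mites had processed signals of 17136, 16024, 17903 and 14517, against 5218, 4828, 5599.7 and 4647 in NON-DIA mites. A single own probe, CUST_877, had a similar log2 ratio of 1.72 ± 0.091 (SD, n = 4). On it DIA mites had signals of 8320.0, 8572, 9550.4 and 7947, against 2595, 2403, 2854 and 2584 in NON-DIA mites. DIA and NON-DIA signals did not overlap on any of these 3 probes.

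The other 5 own probes of CYP392A7 had mean log2 ratios of -0.41, -0.01, 0.05, 0.05 and 0.34. On CUST_876, one of those at 0.05, DIA mites had signals of 816, 756, 884 and 779.5, against 871, 769, 768 and 713 in NON-DIA mites, and the groups overlapped. On CUST_37727 the difference ran the other way, with signals of 182, 158, 169.95 and 184 in DIA mites against 261, 218, 230.1 and 213 in NON-DIA mites. CUST_37727 was lower in DIA mites on all 4 arrays, while CUST_877 was higher on all 4. Over the 6 own probes the log2 fold change was 0.29 ± 0.095 (SD, n = 4), over the shared probes it was 1.69 ± 0.045, and the median over all 8 probes was 0.21. The own-probe values on replicates 1 to 4 were 0.16, 0.30, 0.37 and 0.33, against 1.71, 1.75, 1.67 and 1.64 on the shared probes. The small SD of the gene value thus covered the arrays and not the spread between probes.

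CYP392A9v2, the partner on those shared probes, had no own probe. Its 6 probes, each shared with CYP392A7, CYP392A9 (tetur47g00090) or CYP392A10 (tetur16g03790), had mean log2 ratios between 1.42 and 1.74. The shared probes of CYP392A7 are among these 6, so they lie inside that range by definition and nothing is read from that. Of the 6 own probes of CYP392A7, 5 lay outside it. CYP392A9 had 4 own probes that gave 1.46 ± 0.046, and CYP392A10 had 4 that gave 1.54 ± 0.041 (SD, n = 4 each).

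CYP392B3 was lower in DIA mites on all of its probes and on all 4 arrays. It had 4 own probes, with mean log2 ratios of -1.94 (CUST_882), -1.81 (CUST_41360), -1.26 (CUST_41361) and -1.20 (CUST_883). On CUST_882, DIA mites had processed signals of 202, 242, 218 and 201, against 814, 774, 893 and 822 in NON-DIA mites. The other 4 probes were shared, with CYP392B1 (tetur20g03200) and tetur20g03260 on all 4 and with tetur02g06640 on 2 of them. CUST_41362 and CUST_884, which list 3 genes, had mean log2 ratios of -1.35 and -1.43. CUST_1152 and CUST_42235, which list all 4 genes, had -0.98 and -0.97. On CUST_1152, DIA mites had signals of 1323, 1292, 1254 and 1191, against 2637, 2322, 2604 and 2407 in NON-DIA mites. DIA and NON-DIA signals did not overlap on any of the probes just given by signal.

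The own probes of CYP392B3 gave a log2 fold change of -1.55 ± 0.14 (SD, n = 4), with -1.60, -1.35, -1.66 and -1.59 on replicates 1 to 4. The shared probes gave -1.18 ± 0.16, with -1.20, -0.98, -1.36 and -1.19, and were nearer to 0 on every array. CYP392B1 had 6 own probes, with means between -1.11 and -0.64 and a gene value of -0.90 ± 0.23 (SD, n = 4). With the 4 shared probes it was -1.02 ± 0.20, just past 2-fold (adjusted p = 0.000722, limma), and without replicate 3 it was under 2-fold at -0.93. No own probe of tetur20g03260 was kept by the detection filter, so its value of -1.18 came from the shared probes alone. For tetur02g06640 a single own probe was kept, with a mean log2 ratio of -0.20 ± 0.29 (SD, n = 4). Its DIA signals of 44.5, 30.7, 24.8 and 29.9 and its NON-DIA signals of 38.4, 35.7, 31.3 and 41.2 overlapped.

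**Figure D3:**
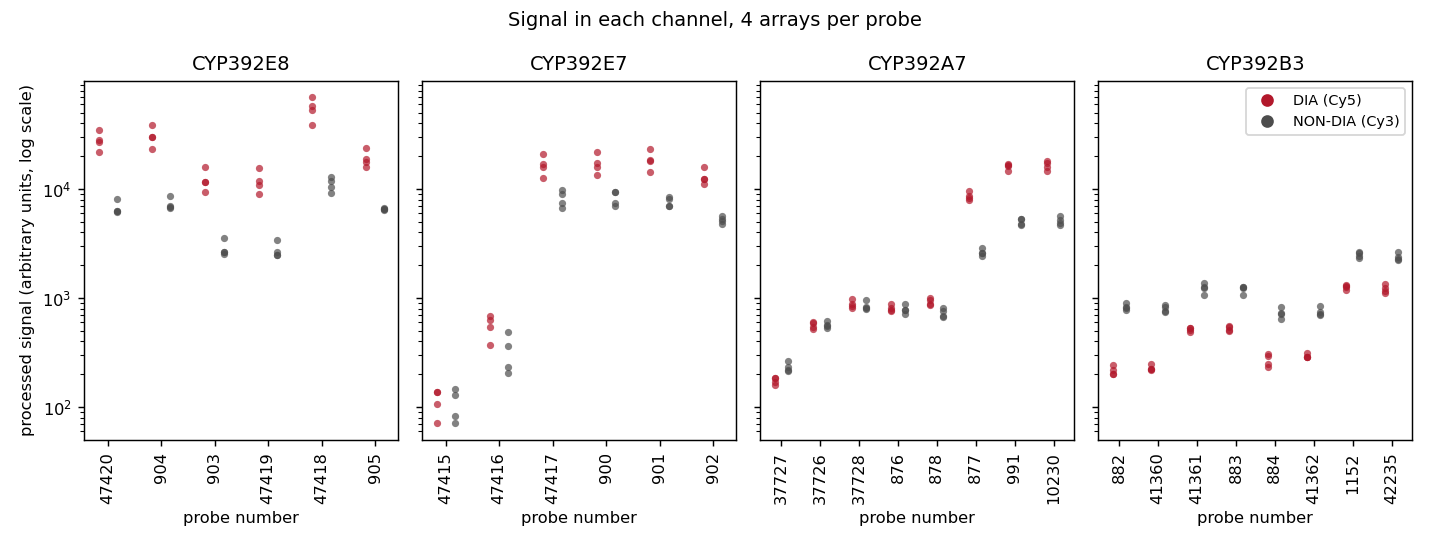
Processed signal in arbitrary units (y axis, log scale) for each probe (x axis, probe number) of the 4 genes, with 4 arrays per probe, DIA in red and NON-DIA in grey. The groups are separate on all CYP392E8 and CYP392B3 probes, whereas they overlap on 3 of the 8 CYP392A7 probes and 2 of the 6 CYP392E7 probes. The genes were picked for their ratios, and the share of separate probes over the whole array was not computed, so nothing is read from these counts.

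Some probes of a gene gave nearly equal ratios and may not be independent measurements. CUST_47419 and CUST_903 of CYP392E8 differed by at most 0.04 in log2 ratio on any array. CUST_37728 and CUST_876 of CYP392A7 differed by at most 0.05, and its shared probes CUST_10230 and CUST_991 by at most 0.03. For CUST_47420 and CUST_904 of CYP392E8 the largest difference was 0.054, and for CUST_47417 and CUST_900 of CYP392E7 it was 0.045. CUST_1152 and CUST_42235 of CYP392B3 differed by at most 0.03. Whether such probes cover the same stretch of a transcript is not given in the sources used here, so the number of probes may overstate how often a gene was measured.

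The 11 other CYP392 genes on the study's list give the setting for these values. The list was chosen on these same samples, so its counts are not independent evidence of direction. Of the 11, 10 were upregulated in DIA mites and 1 was downregulated (limma, adjusted p under 0.05 and at least 2-fold). Each of the 11 kept its direction on all 4 arrays. Genes called at these thresholds would mostly do so, and the share over all genes is not given here, so nothing is read from that. Their median log2 fold change was 1.49, against 0.10 over all genes. The upregulated genes ranged from 2.08-fold, for CYP392E6, to 3.08-fold, for CYP392A9v2 at 1.62 ± 0.073 (SD, n = 4, adjusted p = 8.50e-05). CYP392E10 (tetur27g01030), which hydroxylates the acaricide spirodiclofen and lies on the scaffold of CYP392E8, had 1.15 ± 0.29 (adjusted p = 0.00117). CYP392A10, on the scaffold of CYP392A7, had 1.49 ± 0.057 (adjusted p = 9.40e-05). The only other gene of the list that fell was CYP392B1, of the same subfamily as CYP392B3. Shared probes occurred in 9 of the 11 genes. In the order of mean ratios CYP392E8 came first, and CYP392E7 and CYP392A7 came below every upregulated gene of the list. These places follow from how the 4 genes were picked and from the 2-fold threshold, so nothing is read from them. On their brightest probes CYP392E7 and CYP392A7 were at 1.27 and 1.69. CYP392E7 and the gene just above it, CYP392E6, differed by less than their SDs.

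**Figure D4:**
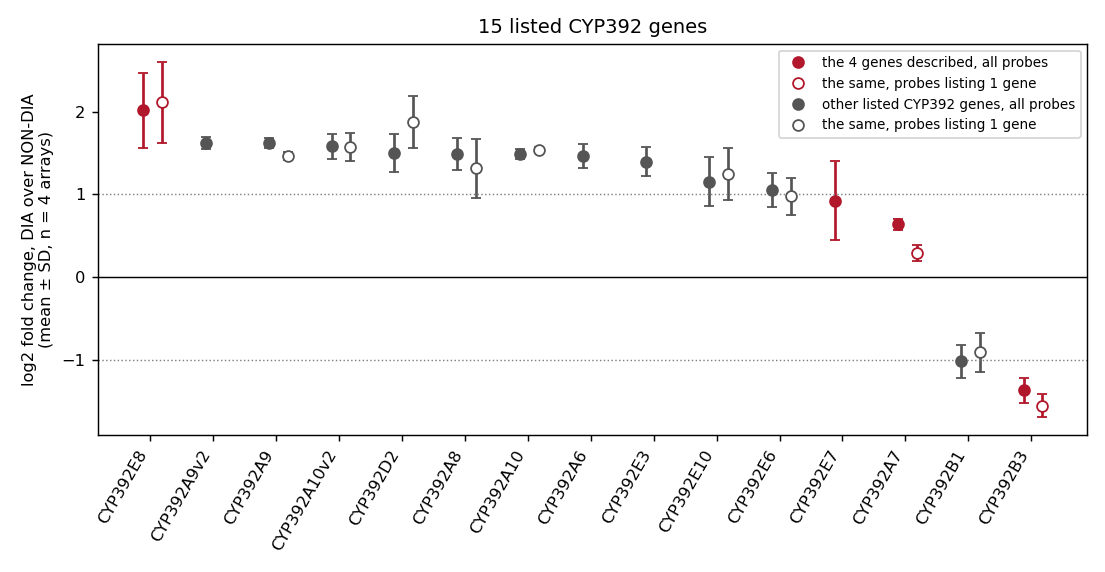
Log2 fold change of DIA over NON-DIA (y axis, mean ± SD over 4 arrays) for the 15 listed CYP392 genes (x axis), with the 4 genes described in red. Filled circles use all probes and open circles those listing 1 gene, drawn where a gene also has shared probes. CYP392A7 moves from 0.64 with all probes to 0.29 with its own, and CYP392B3 from -1.37 to -1.55.

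The 4 genes have 27 neighbours with a value within 5 places in the order of gene IDs, of which 3 were upregulated and 0 downregulated (limma), beside the 9.04% and 9.1% of all genes given above. The count of 3 is close to the share over all genes and is not a result about the neighbourhood. At an unadjusted p under 0.05, 7 of the 27 were higher and 4 were lower in DIA mites, where 40.2% and 28.7% of all genes were, and the test without moderation of the variance also called 0 downregulated. The 3 upregulated neighbours, CYP392E6, tetur27g00320 and tetur27g00360, were all on scaffold 27. The gene tetur27g00320 had log2 ratios with a mean of 3.00 ± 0.28 (SD, n = 4, adjusted p = 9.58e-05), from 2 kept probes with geometric mean signals of 371 in DIA and 46.3 in NON-DIA mites. It was at 1.53 after normexp and loess, at 1.75 after normexp and median centring and at 1.68 without the detection filter, above 2-fold each time. For tetur27g00360 the NON-DIA signal was not well above background on any array, so it entered through DIA mites alone and has only an approximate bound. For this bound NON-DIA signals were raised, where needed, to the dimmest level that the same array still detected. DIA mites were then 1.23-fold higher for tetur27g00360 after normexp, loess and Aquantile normalization. A signal that is not detected can lie above that dimmest level, so the true difference may be smaller. The gene was not called with normexp and loess (0.32), normexp and median centring (0.23) or without the detection filter (0.85), so nothing is read from its call. Of the genes further out, tetur27g00310 was at -0.63 ± 0.018, and tetur27g00370, tetur27g00380, tetur27g00390 and tetur27g00400 were at 0.43, 0.02, 0.11 and 0.70, all under 2-fold. Neither tetur27g00320 nor tetur27g00360 shares a probe with a CYP392 gene described here, and the files used give them no name.

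Around CYP392A7 and CYP392B3 no neighbour was called. Of the 9 genes with a value around CYP392A7, 3 had an unadjusted p under 0.05, where 68.9% of all genes did, and the 9 genes' log2 fold changes ran from -0.995 to 0.63 with a median of -0.20. The lowest, tetur16g03540, named after its value was seen, passed 2-fold without replicate 2 (-1.06) or replicate 3 (-1.001) and on own probes (-1.13). It was nearer to no change with normexp and loess (-0.31), normexp and median centring (-0.26) and probes detected in both channels (-0.16). Nothing is therefore read from its fall. Without replicate 4, tetur16g03450 and tetur16g03460 were called at -1.23. Both had only shared probes kept and identical values on every array, so they count 1 measurement as 2 neighbours. Of the 9 around CYP392B3, 2 had an unadjusted p under 0.05, beside the same 68.9%, and the 9 ran from -0.21 to 0.54 with a median of 0.05. CYP392B3 at -1.37 lay below all of its neighbours, but it was picked as a fall, so nothing is read from that place.

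**Figure D5:**
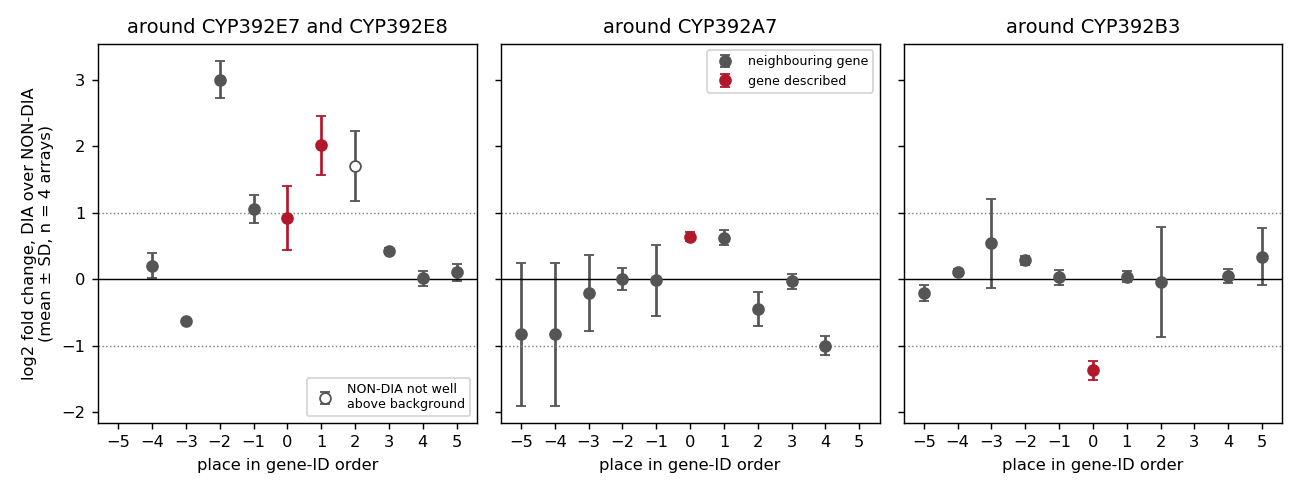
Log2 fold change of DIA over NON-DIA (y axis, mean ± SD over 4 arrays) against the place in gene-ID order (x axis), counted from CYP392E7, CYP392A7 and CYP392B3 at 0. Red points are the genes described and grey points their neighbours, and the open circle is tetur27g00360, whose NON-DIA signal was not well above background. The neighbours above the upper dotted 2-fold line are CYP392E6, tetur27g00320 and tetur27g00360, which has only an approximate bound.

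The genes most like each CYP392 gene over the 4 arrays were found by the Euclidean distance between log2 ratios, leaving out genes that share a probe with it. For CYP392E8 they were tetur31g01710 and tetur10g00560. The NON-DIA signal of tetur31g01710, from 1 probe, was well above background on 2 of 4 arrays and that of tetur10g00560 on none, so no distance is read from them. For CYP392E7 they were tetur06g00950 at 0.17 and tetur30g01830 at 0.25, the second with NON-DIA well above background on 1 array for one of its kept probes and 3 for the other. For CYP392A7, whose gene value averages unlike probes, they were tetur07g04170 at 0.04 and tetur20g02210 at 0.09. For CYP392B3 they were tetur05g00330 at 0.11 and tetur03g06280 at 0.12. None of these 8 is a CYP392 gene of the list. The nearest listed one to CYP392E7 was CYP392E6, at a distance of 0.59, and the nearest to CYP392E8 was CYP392A9v2, at 1.06. With 4 points, likeness in this sense mostly reflects the mean ratio.

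Part of each value depends on how the arrays are scaled. The software's normalization sets each array near a common level, and the RNA spike-in controls gave offsets of -0.03, -0.74, 0.13 and -0.81 log2 units on replicates 1 to 4. Scaled to these controls, the median of all genes was 0.47 in place of 0.10. CYP392E8 then had log2 ratios of 2.09, 2.80, 2.38 and 2.23, and CYP392E7 had 0.40, 1.61, 1.40 and 1.73. CYP392A7 had 0.57, 1.40, 0.56 and 1.47, and CYP392B3 had -1.37, -0.42, -1.64 and -0.58. The direction of each gene was the same on every array under both scalings. The spread of CYP392E7, CYP392A7 and CYP392B3 widened with the offsets, to SDs of 0.60, 0.50 and 0.59, and that of CYP392E8 narrowed to 0.30.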

How the data were processed

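The authors hybridized DIA and NON-DIA RNA on 4 dual-colour Agilent arrays, all on 1 slide, and processed the scans with Agilent Feature Extraction (version 10.7.1.1 in the file header, protocol GE2_107_Sep09). The deposited intensity values are the median and local background signals of each spot and the processed signals after background subtraction and dye normalization. The log10 ratios (Cy5 over Cy3) are deposited by spot and were converted to log2 here. Deposited log2 values for the whole series equalled ratios of the processed signals and served as an alternative.

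Of 62976 spots per array, 1319 were controls. Control spots and spots with outlier flags (49 to 114 per array) were left out, spots of a probe were averaged, and a probe was kept if 2 or more arrays had it well above background in either channel (40349 probes). Between 69.2% and 72.1% of gene spots were well above background in DIA and between 67.2% and 69.5% in NON-DIA mites, and none was saturated. A gene value is the mean over its kept probes, shared ones included. It was tested against 0 with limma 3.58.1 in R 4.3.3 (with version 1.17.8 of data.table), each array being 1 observation. Tables were made with pandas 2.3.3 and numpy 2.4.6, and figures with matplotlib 3.10.9, in Python 3.11.15. On simulated data for the comparison of DIA with NON-DIA mites (14986 genes, 200 of them changed by well over 2-fold), 195 were recovered, with 1 false call. The number of arrays limits the precision. The p-values measure the spread between these 4 array ratios, each of 1 DIA pool and 1 NON-DIA pool.

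The members and lists were chosen with earlier results of these data known. Named genes are the members, genes sharing a probe with them, listed CYP392 genes on their scaffolds and the highest and lowest of that list, and the 2 nearest patterns of each. The neighbours and own-probe values named beside them, and the probes given by signal, were chosen after values were seen. Gene names of the CYP392 family are the study's. Genes of P450 partner proteins were not analysed here, since 0 array gene IDs matched the reference used here. Alternatives were normexp (offset 50) with loess or median centring, the deposited table, spike-in scaling, other detection filters, the median or brightest probe, own or shared probes alone, array row or column as a covariate, an unmoderated test, a test beyond 2-fold (treat), separate channels without pairing, and leaving out each replicate. They were applied to neighbours after the data were seen.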

Additional observations from a re-analysis of the deposited data

Results flagged for a closer look

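Among 43 sets of 4 array values that were screened (15 genes and 28 probes), 2 held an array far from the other 3, where about 1 in 20 would by chance. CUST_882 of CYP392B3 (tetur20g00290) had a log2 ratio of -1.68 on replicate 2, against -2.03 to -2.01 on the others. CUST_878 of CYP392A7 (tetur16g03500) had 0.24 on replicate 1, against 0.36 to 0.38 on the others. Neither array changed the direction of its probe.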

How the results depend on the processing

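CYP392E8 (tetur27g00350), CYP392E7 (tetur27g00340), CYP392A7 (tetur16g03500) and CYP392B3 (tetur20g00290) kept their directions under every alternative that gave a value, and CYP392E7 has no shared probe. CYP392E7 moved by less than its SD throughout, although it passed 2-fold with spike-in scaling (1.28), the median over probes (1.06), the brightest probe (1.27) and without replicate 1 (1.11). CYP392E8 moved beyond it only with shared probes alone, to 1.52. CYP392A7, at 0.64, was 0.56 with normexp and loess, 0.82 with normexp and median centring, 1.00 with spike-in scaling, 0.21 as the median over probes, 1.69 on its brightest probe, 0.29 on own probes and 1.69 on shared probes. CYP392B3, at -1.37, was -1.19, -0.88 and -1.004 under the first 3 of these, -0.98 on its brightest probe, -1.55 on own probes and -1.18 on shared probes. Leaving out 1 replicate gave 1.85 to 2.21 for CYP392E8, 0.72 to 1.11 for CYP392E7, 0.62 to 0.67 for CYP392A7 and -1.43 to -1.32 for CYP392B3.

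Of all genes, 1354 were upregulated and 1364 downregulated in DIA mites. These counts were 337 and 804 with normexp and loess, 644 and 603 with normexp and median centring, 253 and 305 with shared probes alone (2528 genes tested) and 455 and 708 in the test beyond 2-fold, and 2788 genes rose with spike-in scaling, against 912 that fell. Leaving out 1 replicate gave 1270 to 1381 up and 1329 to 1391 down.

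Of the other listed CYP392 genes, 9 to 10 rose without 1 replicate, CYP392E6 being lost without replicate 3. In place of 10, 9 rose with normexp and loess and on the brightest probe, and 8 in the test beyond 2-fold. With own probes 8 of 10 tested rose, and with shared probes 7 of 9 tested. The 1 fall, of CYP392B1, was lost (0 genes) with both normexp settings, spike-in scaling, the brightest probe, own probes, the test beyond 2-fold and without replicate 3, giving 0 to 1. Of the neighbours, 1 rose in place of 3 with normexp and loess (tetur27g00320), with shared probes alone (6 tested) and in the test beyond 2-fold, and 1 fell with own probes. Without 1 replicate 2 to 3 neighbours rose (2 without replicate 3) and 0 to 2 fell (1 without replicate 2 or 3, 2 without replicate 4). The 2 without replicate 4 were tetur16g03450 and tetur16g03460, whose identical values came from shared probes.

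With separate channels and no pairing of the channels of an array (no replicate block), 337 genes rose and 804 fell, 0 other CYP392 genes fell, 1 neighbour rose, CYP392A7 was 0.56 and CYP392B3 was -1.19. These values follow from the normexp and loess step, which gave the same ones with the pairing. Beyond the first paragraph's values, the cause of each shift was not tested. Signal near background limits the dim probes, and 4 arrays limit all.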
